A study of Mus musculus with 12 samples.

Results

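The enzymes that add methyl groups to histone lysines and those that remove them were followed through the open chromatin around their genes in mouse splenic B cells with and without the demethylase LSD1. A region belonged to the set when the mm10 protein-coding gene that it overlapped, or the nearest one where it overlapped none, was among 34 named genes. In all, 274 of 94161 regions met this rule, and every one of the 34 genes had at least 1. Of these regions, 199 overlapped the body of their gene, 75 lay outside it, and 9 also belonged to another gene.

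Lysine methylation of histones H3 and H4 marks chromatin according to the residue. Methylated H3K4 lies at promoters and enhancers, H3K36 and H3K79 methylation lies over transcribed genes, and H3K9 and H3K27 methylation is tied to silencing. Methyltransferases of the KMT2 and SETD1 families write H3K4 methylation, the Polycomb complex PRC2 writes H3K27 methylation, and most of the demethylases studied here use a Jumonji domain to erase one or more of these marks. LSD1, encoded by Kdm1a, belongs to another enzyme class, the flavin-dependent demethylases, and acts on methylated H3K4 and H3K9. In B cells, EZH2 is best known for its part in the germinal centre.

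Each ATAC-seq library came from 10000 sorted, unstimulated cells, whose open DNA was cut and tagged by the Tn5 transposase. Follicular B cells (FoB) and B cells of the marginal zone (MZB), each from mice labelled wild-type or knockout for LSD1, made 4 groups of 3 libraries. All donors were female C57BL/6J mice, and all cells came from the spleen. Within a B220+ gate negative for Thy1.1, F4/80, CD11b, CD93 and GL7, MZB were the CD23- CD21hi CD1d+ cells and FoB the CD23+ CD21int CD1d- cells. What drove the deletion, when and in which cells, how old the mice were and whether the libraries came from separate mice is not stated in the labels. The p-values therefore speak to the spread among 3 libraries a group, estimated over all 4 groups together, and that spread may be technical. Levels are reads in a region per 1000000 reads over all listed regions (rppm), given as mean ± SD over 3 libraries unless stated otherwise. Fold changes are differences of log2(rppm + 0.5) with their standard errors, which understates the change of low regions. A region was called when its adjusted p from limma, with Benjamini-Hochberg adjustment over all tested regions, was below 0.05.

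Recovered reads per library ran from 3169966 to 10375328, with FoB wild-type library 2 the deepest, and libraries of a group resembled each other more (Spearman 0.93 to 0.965) than libraries of different cell types (0.827 to 0.889). Summed regions of 10 MZB marker genes held 2102 to 2165 rppm in wild-type MZB libraries and 1624 to 1639 rppm in wild-type FoB libraries. Those of 10 FoB marker genes held 2301 to 2369 and 2814 to 2873 rppm, so both lists went with the cell type labels. Genes of the surface markers used for sorting went with the gate only in part. Regions of Fcer2a, which encodes CD23, summed to 49.4 ± 4.25 rppm in wild-type MZB and 97.2 ± 4.96 rppm in FoB, and those of Cd1d1 to 158.5 ± 2.25 and 131.2 ± 2.86 rppm. Regions of Cr2, which encodes CD21, went against the gate, with 295.7 ± 9.42 rppm in MZB and 348.3 ± 23.2 rppm in FoB. The region at Kdm1a held 22.98 ± 6.05 rppm in MZB of the wild-type and 25.05 ± 5.55 rppm in MZB of the knockout and was called in neither cell type, which checks nothing about the genotype because the deleted part of the gene is not known here.

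RefSeq promoter windows on GRCm38.p6, the assembly named mm10, were matched by symbol for 22 of the 34 genes. The 250 bases before the annotated start are printed for promoters on which the comparisons below turn: those of the PRC2 genes Suz12, Ezh1 and Ezh2 and of the demethylase genes Kdm3a and Kdm4a, whose regions were less accessible in MZB than in FoB, and internal starts of Kmt5a and Kdm2b, with the first Kmt5a start for contrast. Capitals mark matches, on either strand, to 7 motifs searched: CCGGAAG (ETS factors), GGGCGG (the GC box), CCAAT, TGACGTCA (the cAMP response element), TATAAA (the TATA box), and the NRF1 and YY1 motifs, which matched in 0 of the listed genes' stretches. No motif holds the letters of another, and adjoining matches run together in the print.
Suz12, chr11:79992856-79993105, plus strand: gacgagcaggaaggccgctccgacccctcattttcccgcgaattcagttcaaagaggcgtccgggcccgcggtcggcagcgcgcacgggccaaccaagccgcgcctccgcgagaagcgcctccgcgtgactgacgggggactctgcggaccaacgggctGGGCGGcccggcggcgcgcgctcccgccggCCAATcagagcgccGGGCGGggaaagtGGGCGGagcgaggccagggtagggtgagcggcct
Ezh1, chr11:101226464-101226713, minus strand: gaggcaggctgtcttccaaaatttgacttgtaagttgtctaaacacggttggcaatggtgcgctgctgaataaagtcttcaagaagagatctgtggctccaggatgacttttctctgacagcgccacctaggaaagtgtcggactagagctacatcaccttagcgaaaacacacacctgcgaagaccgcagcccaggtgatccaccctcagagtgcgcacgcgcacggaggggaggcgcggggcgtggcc
Ezh2, chr6:47595031-47595280, minus strand: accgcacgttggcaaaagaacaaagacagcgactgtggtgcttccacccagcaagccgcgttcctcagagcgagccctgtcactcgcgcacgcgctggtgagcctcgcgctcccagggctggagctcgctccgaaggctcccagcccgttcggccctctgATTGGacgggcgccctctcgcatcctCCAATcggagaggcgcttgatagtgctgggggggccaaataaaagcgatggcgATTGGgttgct
Kdm3a, chr6:71632687-71632936, minus strand: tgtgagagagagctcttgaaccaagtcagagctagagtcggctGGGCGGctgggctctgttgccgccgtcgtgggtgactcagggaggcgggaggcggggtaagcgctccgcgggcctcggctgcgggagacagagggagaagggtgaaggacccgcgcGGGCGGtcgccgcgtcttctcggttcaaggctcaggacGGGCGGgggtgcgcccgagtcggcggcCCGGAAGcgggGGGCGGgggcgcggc
Kdm4a, chr4:118180044-118180293, minus strand: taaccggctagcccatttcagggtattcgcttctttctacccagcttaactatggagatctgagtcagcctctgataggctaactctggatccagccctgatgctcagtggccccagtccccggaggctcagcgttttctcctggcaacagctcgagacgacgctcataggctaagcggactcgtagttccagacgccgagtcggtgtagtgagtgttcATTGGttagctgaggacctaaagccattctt
Kmt5a internal start, chr5:124445249-124445498, plus strand: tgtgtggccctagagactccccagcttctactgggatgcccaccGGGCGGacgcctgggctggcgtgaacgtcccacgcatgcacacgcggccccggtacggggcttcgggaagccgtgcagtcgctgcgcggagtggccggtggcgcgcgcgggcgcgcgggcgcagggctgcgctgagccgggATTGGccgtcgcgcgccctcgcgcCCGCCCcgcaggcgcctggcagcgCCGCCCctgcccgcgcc
Kmt5a first start, chr5:124439680-124439929, plus strand: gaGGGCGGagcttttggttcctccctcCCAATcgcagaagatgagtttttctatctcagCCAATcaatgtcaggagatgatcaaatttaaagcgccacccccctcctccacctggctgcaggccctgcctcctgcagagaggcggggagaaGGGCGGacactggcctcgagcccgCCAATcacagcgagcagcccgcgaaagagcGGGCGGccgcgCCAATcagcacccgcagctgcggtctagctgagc
Kdm2b internal start, chr5:122900351-122900600, minus strand: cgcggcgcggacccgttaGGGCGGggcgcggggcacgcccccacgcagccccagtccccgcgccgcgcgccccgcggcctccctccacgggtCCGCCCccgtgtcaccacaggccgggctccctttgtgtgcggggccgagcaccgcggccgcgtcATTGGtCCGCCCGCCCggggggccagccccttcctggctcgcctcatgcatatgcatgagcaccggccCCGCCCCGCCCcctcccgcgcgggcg

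The GC box was in 23 of 32 such stretches of the listed genes (71.9%) and in 32.7% of all 32851 annotated stretches of the same length. The 32 come from 22 genes and are not independent, since some genes have several and a pair at Kdm2b overlaps almost wholly. CCAAT was in 34.4% and 33.8%, the ETS letters in 12.5% and 6.91%, and the TATA box in 0 of 32 and 12.4%. Base composition differed as well, with a median of 67.8% G and C against 52.4% and a median of 25.5 CpG dinucleotides against 6. The stretches before the internal starts of Kdm2b and Kmt5a were 80.8% and 78% G and C, while that of Kdm4a was 53.6% and that of Ezh1 55.2%. Ezh2 had 3 CCAAT matches, and the Ezh1 stretch held none of the 7 motifs. A match is a run of letters and not evidence that the factor binds there.

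Of the 34 highest regions, 17 lay on a promoter window, 5 lay elsewhere in genes that have a window, and 12 belonged to genes without a window in the table. Per kilobase of region, over the 12 libraries, the median was 39.2 rppm per kb. Kdm4b led with 124 rppm per kb, followed by the region 45587 bp from Kmt2e with 112, Kdm4a with 110, Kdm4c with 88.8 and Nsd3 with 80.5. KDM4A, KDM4B and KDM4C erase H3K9 and H3K36 methylation, KMT2E is a KMT2 relative with little catalytic activity, and NSD3 methylates H3K36. At the low end stood Nsd2 with 16.5 rppm per kb, Ezh1 with 17, Ehmt2 with 18.2, Setd1a with 19.6 and Setdb1 with 20.9. The highest region of Kdm5a also covers the start of Ccdc77, that of Kmt2d the start of Prkag1, and that of Kmt2b part of Zbtb32, so their reads cannot be given to the enzyme gene alone.

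**Figure D1:**
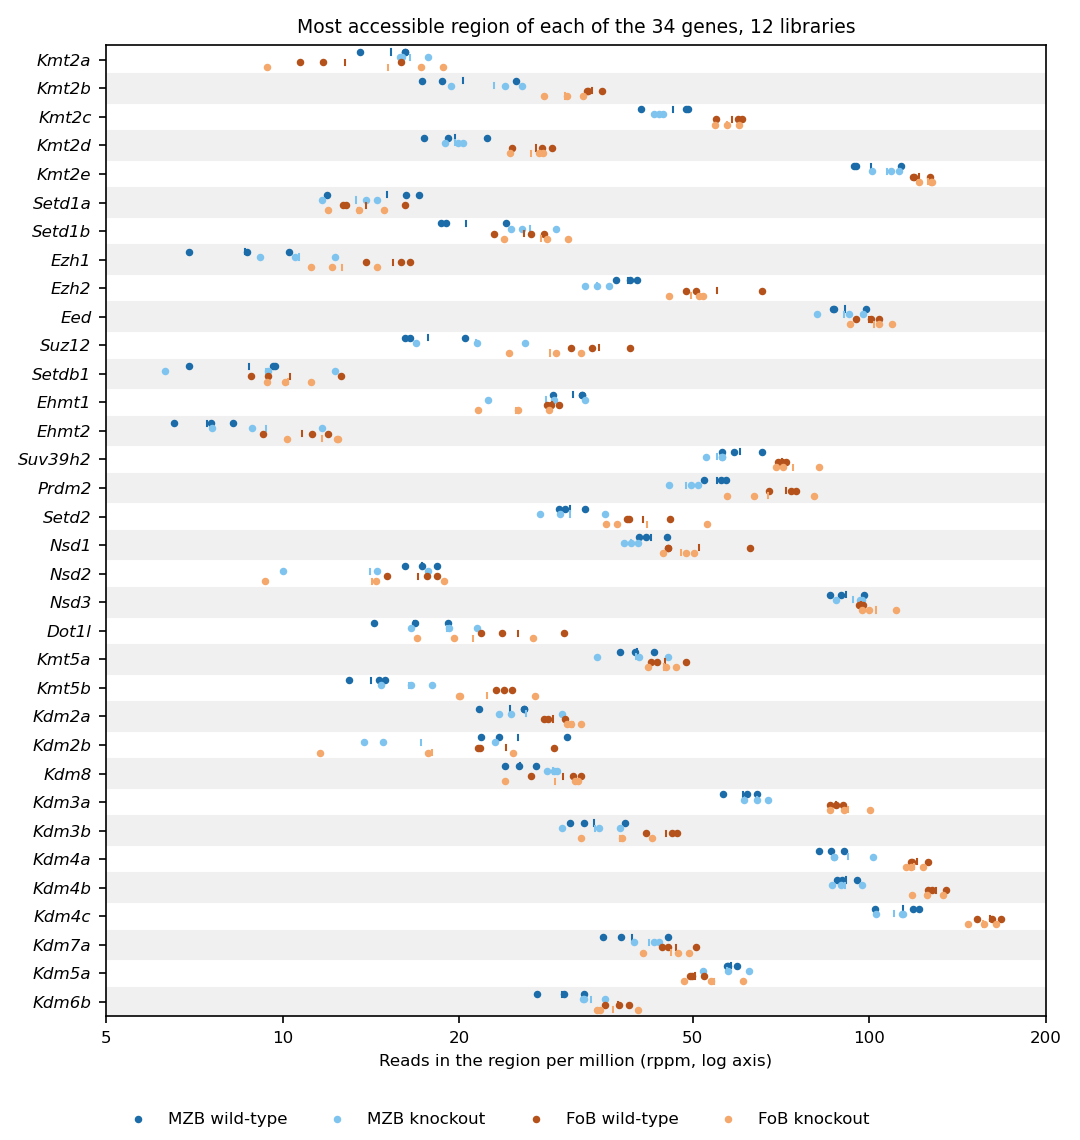
Level in rppm of the most accessible region of each of the 34 genes, on a log axis, for every library of the 4 groups (points) with the group mean (tick). The highest Kdm4c region held 114.1 rppm in wild-type MZB and 160.5 rppm in wild-type FoB, and the highest Setdb1 region held 8.756 and 10.29 rppm.

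No highest region of an enzyme gene was called between knockout and wild-type in either cell type. In MZB the fold changes at these 34 regions ran from -0.56 to 0.36 with a median of 0.03, and 18 of the 34 were positive. In FoB they ran from -0.46 to 0.20 with a median of -0.03, and 11 were positive. The lowest value in both was at the internal start of Kdm2b, which encodes an H3K36 demethylase that also recruits a Polycomb complex to CpG islands.

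In MZB, 2 of the 265 tested regions of the enzyme genes differed between knockout and wild-type, an intragenic Nsd3 region that fell and an intragenic Kdm3b region that rose. That is 0.755% of the tested regions, and 0.777% of all 89782 tested regions were called (0.502% higher and 0.275% lower). Another 9 regions of the set did not pass the filter on low values. At an unadjusted p below 0.05, 25 of the 265 passed (9.43%), against 13.3% of all tested regions. The libraries of knockout and wild-type did not overlap at 15.1% of the enzyme regions and at 17.7% of all. The median fold change was -0.01 in the enzyme regions and -0.02 over all regions, so the shares of the enzyme genes lay near the background. In sorted bulk cells, a change in the share of some cells and a change in the accessibility of each cell cannot be told apart.

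The Nsd3 region, at chr8:25608926-25609421 and 7325 bp inside the gene from its nearer end, held 15.38, 15.95 and 18.35 rppm in the wild-type MZB libraries. The knockout MZB libraries held 11.43, 7.256 and 10.64 rppm, so every knockout library lay below every wild-type library. The fold change was -0.75 ± 0.17 (adjusted p = 0.0185), and 108 knockout reads stood against 176 wild-type reads (ratio scaled by library totals 0.605, exact 95% interval 0.471 to 0.773, for counting error only). In FoB the same region held 14.53 ± 1.92 rppm in wild-type against 12.99 ± 0.862 rppm in knockout, with overlapping libraries (fold change -0.15 ± 0.17, adjusted p = 0.867). The call was lost without MZB knockout library 2 (adjusted p = 0.158), wild-type library 2 (0.0536) or wild-type library 3 (0.125), and with DESeq2 (0.301). The region at the start of Nsd3, chr8:25601166-25602359, was not called, with 91.16 ± 6.29 rppm in MZB of the wild-type and 93.69 ± 5.2 rppm in MZB of the knockout (adjusted p = 0.878).

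KDM3B removes methyl groups from H3K9, and its called region lies within the gene at chr18:34788473-34788734. Wild-type MZB libraries held 0.5398, 0.7975 and 1.244 rppm there, and knockout MZB libraries held 3.265, 2.839 and 2.66 rppm. All knockout libraries were above all wild-type libraries, but on few reads, 32 against 9 (scaled ratio 3.5, exact 95% interval 1.63 to 8.34). The fold change was 1.36 ± 0.33 (adjusted p = 0.0351). In FoB the levels were 2.255 ± 0.402 rppm in wild-type against 3.102 ± 0.813 rppm in knockout, so wild-type MZB was the low group and knockout MZB stood near both FoB groups. Leaving out any knockout MZB library ended the call (adjusted p 0.0802 to 0.104), as did leaving out wild-type MZB library 1 (0.154) or 2 (0.1), and edgeR (0.0599) and DESeq2 (0.407) did not make it. The highest Kdm3b region held 33.94 ± 3.91 and 34.03 ± 3.82 rppm in the same MZB groups.

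**Figure D2:**
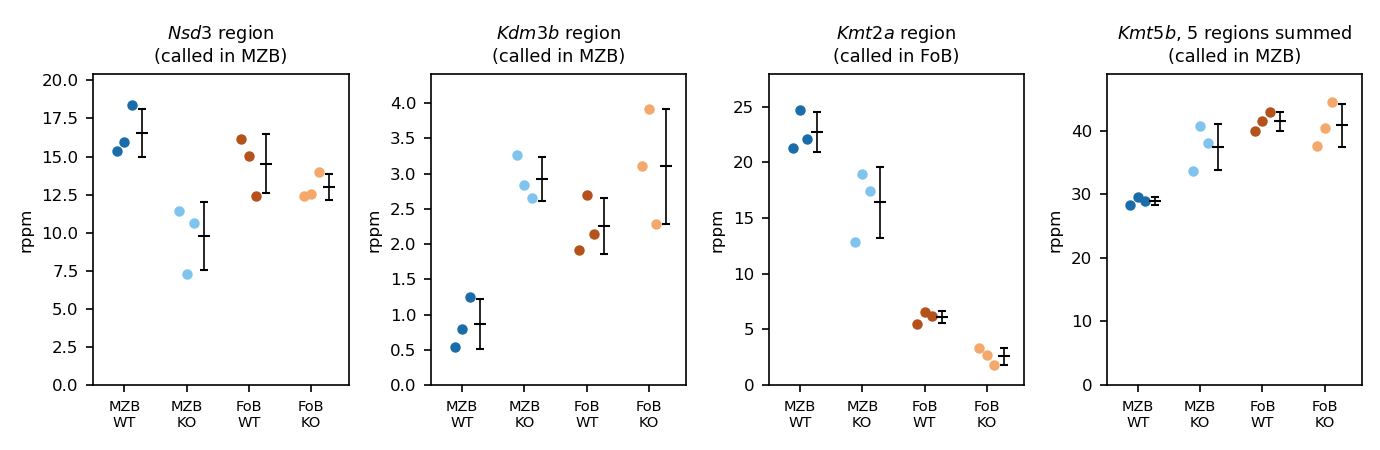
Level in rppm of the 3 regions called between knockout and wild-type, and of the 5 regions of Kmt5b summed, for each library (coloured points) with the group mean ± SD (black). The knockout libraries lie apart from the wild-type libraries of the cell type named above each panel. Because the panels were picked by a small adjusted p, this separation adds no support.

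The other regions with the smallest unadjusted p in MZB missed the threshold. KMT5A, the H4K20 monomethyltransferase, has an internal start covered by chr5:124445046-124446052, whose sequence is printed above. That region held 14.84, 15.42 and 13.37 rppm in wild-type against 4.665, 10.41 and 11.82 rppm in knockout MZB (fold change -0.76 ± 0.22, adjusted p = 0.1). The first Kmt5a start held 40.14 ± 2.65 and 40.07 ± 5.58 rppm (adjusted p = 0.982). The internal start of Kdm2b, chr5:122899959-122900789, held 25.22 ± 4.64 rppm without and 17.21 ± 5.08 rppm with the knockout in MZB (adjusted p = 0.161), and 24.06 ± 4.29 and 17.98 ± 6.54 rppm in FoB (adjusted p = 0.41). At both internal starts, library 1 was the lowest knockout library in each cell type, with 4.665 and 7.657 rppm at Kmt5a and 13.76 and 11.59 rppm at Kdm2b, and the part of that library in these differences was not tested. A region 60534 bp from Eed held 7.549 ± 0.643 and 4.102 ± 2.13 rppm (adjusted p = 0.102), and one 26999 bp from Kmt2e held 12.5 ± 1.17 and 8.099 ± 0.823 rppm (adjusted p = 0.145). Regions at Kmt5b, Ezh2, Setd1b and another at Kdm2b had higher means in the knockout, with adjusted p from 0.171 to 0.21.

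In FoB, 1 of the 265 regions of the enzyme genes fell in the knockout and 0 rose. This is 0.377%, against 0.539% of all tested regions (0.32% higher and 0.219% lower). At an unadjusted p below 0.05, 26 of the 265 passed (9.81%), against 9.05% of all, and libraries did not overlap at 15.1% of the enzyme regions and 14.7% of all. The median fold change was -0.07 in the enzyme regions and -0.02 over all.

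The region that fell lies 6784 bp from Kmt2a, before its start, at chr9:44888136-44888589. KMT2A, also called MLL1, writes H3K4 methylation and is needed in blood stem cells. Wild-type FoB libraries held 5.476, 6.554 and 6.208 rppm, and knockout FoB libraries held 3.311, 2.678 and 1.779 rppm. The groups did not overlap, and the fold change was -1.12 ± 0.20 (adjusted p = 0.00157; 36 knockout reads against 114, scaled ratio 0.422, exact 95% interval 0.282 to 0.619). In MZB the same region was more accessible and also lower in every knockout library, with 21.32, 24.72 and 22.08 rppm in wild-type against 12.83, 18.93 and 17.44 rppm in knockout (adjusted p = 0.277). Leaving out any 1 library kept the FoB call, with adjusted p of at most 0.0223, and so did edgeR (0.00946), while DESeq2 (0.0775) and a fit to the FoB groups alone (0.065) did not make it. The Kmt2a promoter region showed no such call in either cell type (adjusted p = 0.47 in MZB and 0.719 in FoB).

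The regions next in order in FoB lay mostly around Eed, the PRC2 subunit that binds methylated H3K27, and around Kdm4a. Regions 51077, 42127 and 38604 bp from Eed held 8.151 ± 1.22, 31.24 ± 4.85 and 16.7 ± 0.94 rppm in wild-type FoB and 12.46 ± 3.42, 39.9 ± 2.44 and 21.76 ± 3.29 rppm in knockout FoB. None was called (adjusted p = 0.183, 0.221 and 0.332). Knockout and wild-type libraries were apart at each of the 3, as at 14.7% of all tested regions. Because the 3 were picked by a small unadjusted p, this separation adds no support. The last of them had the same order in MZB, with 17.31 ± 0.221 and 22.09 ± 1.44 rppm. Regions of Kdm4a, inside the gene, held 31.81 ± 3.07 and 25.33 ± 2.64 rppm (adjusted p = 0.33) and 18.44 ± 0.873 and 13.92 ± 2.75 rppm (adjusted p = 0.358).

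The knockout effect was not shown to differ between the cell types at any region of the enzyme genes. The interaction term called 0 of 265 regions with limma, edgeR and DESeq2 alike, while 21 (7.92%) passed at an unadjusted p below 0.05 with limma, against 6.22% of all. Over all tested regions limma called 1 (0.00111%). The smallest unadjusted p, 0.00407, was at the region 51077 bp from Eed, where the knockout change was -0.20 ± 0.18 in MZB and 0.56 ± 0.18 in FoB (adjusted p of the difference 0.71). Next came the Suz12 promoter region. Its fold change was 0.25 ± 0.14 in MZB and -0.27 ± 0.14 in FoB (unadjusted p = 0.0132, adjusted p = 0.745). Ezh1, whose product can replace EZH2 in PRC2, had a like pattern at its start, with a difference of 0.58 ± 0.25 (unadjusted p = 0.0234, adjusted p = 0.776).

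Summing all regions of a gene gave the same picture of few changes. In MZB the gene-wide fold changes of the 34 genes ran from -0.24 to 0.36, and 1 gene, Kmt5b, rose (2.94%, against 2.97% of 16787 tested genes, 1.68% higher and 1.29% lower). In FoB they ran from -0.27 to 0.15 and 0 were called, against 1.4% of all genes (0.846% higher and 0.554% lower). The interaction called 0 of the 34 and 0.0119% of all genes (0.00596% in each direction). At an unadjusted p below 0.05, 2 of the 34 passed in FoB and 4 in the interaction. The share of all genes at that threshold was not counted, so these 2 counts have no background to be read against. KMT5B writes the higher methylation states of H4K20. Its 5 regions summed to 28.34, 29.51 and 28.92 rppm in wild-type MZB and 33.59, 40.69 and 38.12 rppm in knockout MZB, all above the wild-type values (fold change 0.36 ± 0.10, adjusted p = 0.0473). In FoB the sums were 41.5 ± 1.5 and 40.84 ± 3.43 rppm, so knockout MZB lay between wild-type MZB and FoB, and the difference between the cell types did not pass (adjusted p = 0.693). The call is close to the threshold: it was lost without MZB knockout library 2 (adjusted p = 0.191) or 3 (0.124), without any wild-type MZB library (0.0961 to 0.136), and without FoB knockout library 2 (0.0587), FoB wild-type library 2 (0.0585) or 3 (0.0634). No single Kmt5b region was called, and the largest change was at a region 22904 bp from the gene, with 1.367 ± 0.657 and 3.438 ± 1.21 rppm (adjusted p = 0.171).

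**Figure D3:**
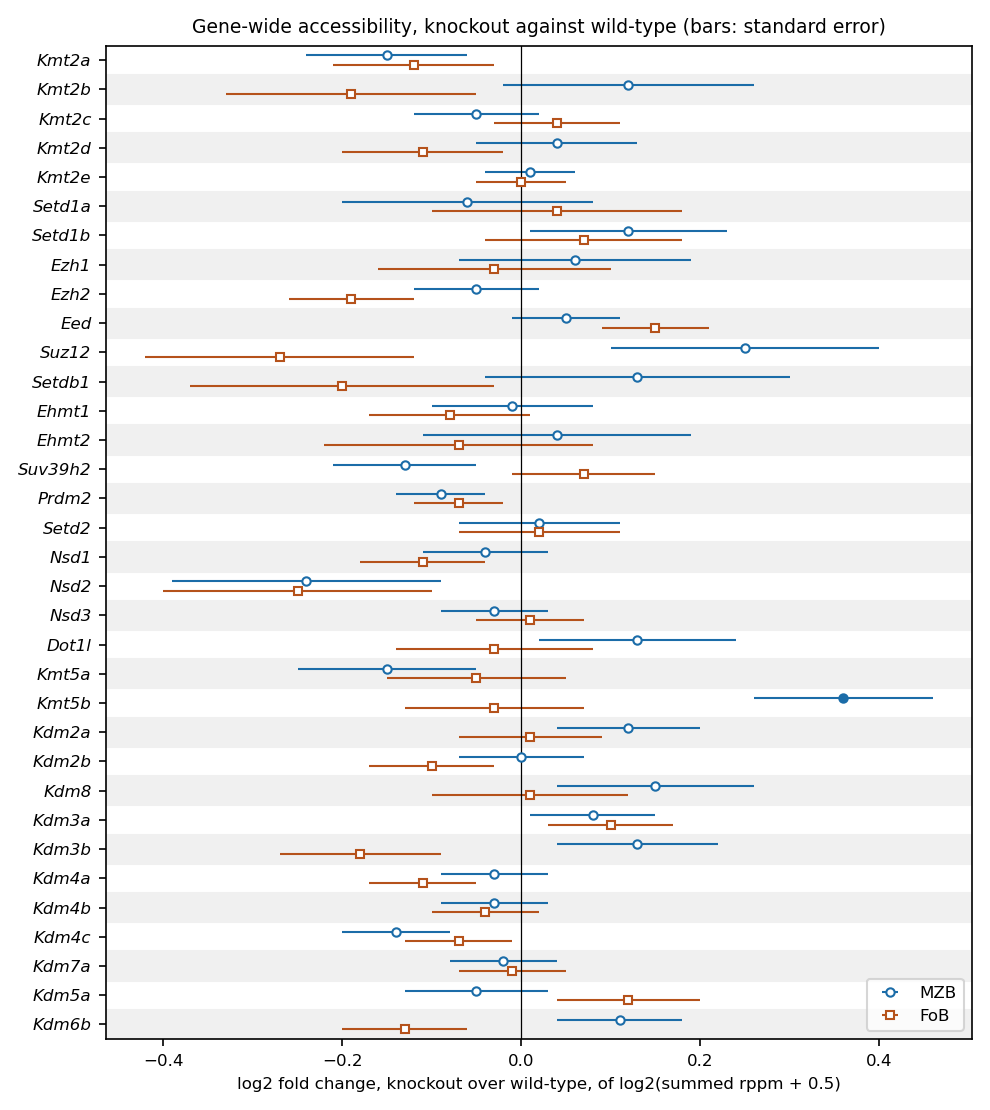
Fold change between knockout and wild-type of the summed accessibility of each of the 34 genes in MZB (circles) and FoB (squares), with standard errors. Filled symbols mark calls, of which there is 1, Kmt5b in MZB at 0.36, and all other values lie between -0.27 and 0.25.

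The knockout calls were also counted apart for demethylases and for the other enzymes. Among the 98 tested regions of the 11 demethylase genes, 1 rose and 0 fell in MZB and 0 were called in FoB, with 10 and 11 at an unadjusted p below 0.05 (10.2% and 11.2%). Among the 167 regions of the other 23 genes, 0 rose and 1 fell in each cell type, with 15 at an unadjusted p below 0.05 in each (8.98%). Of all tested regions, 0.777% were called in MZB and 0.539% in FoB, and 13.3% and 9.05% passed at an unadjusted p below 0.05. The gene-wide fold changes of the demethylases ran from -0.14 to 0.15 in MZB and from -0.18 to 0.12 in FoB. Kdm6b, which encodes an H3K27 demethylase, stood at 0.11 ± 0.07 and -0.13 ± 0.07 (adjusted p = 0.456 and 0.585), and Kdm5a, an H3K4 demethylase, at -0.05 ± 0.08 and 0.12 ± 0.08. The difference between demethylases and methyltransferases was not tested as a set.

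In knockout MZB the summed levels at some marker genes of other blood cells were higher than in wild-type MZB, as given here for the whole lists. Regions of 7 of 10 myeloid markers summed to between 285 and 293 rppm in wild-type and between 321.6 and 350.8 rppm in knockout MZB, with Mpo, Elane and S100a8 without a region. Those of 9 of 10 NK cell markers summed to 392.5 to 399.8 and 425.2 to 463.2 rppm, and those of all 10 dendritic cell markers to 901.5 to 920.1 and 935.5 to 992.1 rppm. T cell markers had regions at 5 of 10 genes, with 149 to 156.8 and 153.5 to 157.1 rppm, and erythroid and megakaryocyte markers at 7 of 10, with 179.2 to 188 and 182.2 to 193.7 rppm. In FoB the sums in wild-type and knockout overlapped for myeloid (263.4 to 268.6 and 265.6 to 278.7 rppm), NK (380.3 to 425.2 and 417.3 to 447 rppm), dendritic (841.8 to 848.7 and 844.5 to 899.3 rppm), T cell (127 to 145.2 and 140.7 to 143.9 rppm) and MZB markers (1624 to 1639 and 1573 to 1632 rppm). Lists that were lower in every knockout FoB library were those of FoB markers (2814 to 2873 and 2617 to 2807 rppm), of markers of all B cells (2385 to 2416 and 2203 to 2377 rppm) and of erythroid and megakaryocyte markers (193.5 to 200.6 and 180.7 to 186 rppm). The MZB and FoB marker lists overlapped between genotypes in MZB (2102 to 2165 and 2046 to 2115 rppm, and 2301 to 2369 and 2208 to 2346 rppm), and so did the list of all B cells (1958 to 2090 and 1955 to 2192 rppm). The part of these differences in the calls at Nsd3, Kdm3b, Kmt2a and Kmt5b was not tested.

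Other genes of the same pathway were counted in the same way. Among 49 tested regions of other demethylase genes, 76 of other methyltransferase genes and 225 of genes for complex partners, 0 were called between knockout and wild-type in either cell type with limma, against 0.777% of all tested regions in MZB and 0.539% in FoB. With TMM, 1 of 75 tested regions of the other methyltransferase genes was higher in knockout FoB (1.33%, against 0.364% of all). At an unadjusted p below 0.05, 5, 10 and 22 passed in MZB (10.2%, 13.2% and 9.78%, against 13.3% of all) and 5, 5 and 19 in FoB (10.2%, 6.58% and 8.44%, against 9.05%). With regions summed, Smyd2 and Mecom fell in knockout MZB, 2 of 16 tested genes among the other methyltransferases (12.5%, against 2.97% of all genes). Of the 6 tested other demethylase genes, which include Kdm1a, and the 27 tested complex partners, 0 were called. The lists held 18 other methyltransferases, 10 other demethylases and 30 complex partners. The demethylase genes Kdm5c, Kdm5d, Kdm6a and Phf8 had no region assigned, so the counts do not cover them. SMYD2 methylates lysines of histone and other proteins, and its 8 regions summed to 67.57 ± 2.96 rppm in wild-type against 48.65 ± 8 rppm in knockout (fold change -0.48 ± 0.11, adjusted p = 0.0134). Mecom encodes the transcription factor EVI1 and, in its long form, PRDM3, and its 5 regions summed to 8.214 ± 1.24 and 3.565 ± 1.47 rppm (-1.17 ± 0.29, adjusted p = 0.0257). Smyd2 lost the call without MZB knockout library 1 (adjusted p = 0.0556) or wild-type library 2 (0.0719) or 3 (0.052), and Mecom without MZB knockout library 2 (0.155) or any wild-type MZB library (0.0661 to 0.14).

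More regions of these genes were called between cell types than between genotypes. Between wild-type MZB and FoB, 43 of 265 regions were higher in MZB (16.2%) and 37 were lower (14%), against 24.2% and 11.4% of all tested regions. The direction depends on scaling, because the median of all regions was 0.18 higher in MZB with the deposited values and 0.02 higher after TMM scaling. With TMM, 26 regions of the enzyme genes were higher and 59 lower (9.77% and 22.2%, against 19% and 18.5% of all), and 26 higher and 37 lower regions were called under both scalings, with 0 in opposite directions. On the deposited scale the median fold change of the enzyme regions, 0.05, was below that of all regions.

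Position within the gene went with the direction. Of the 24 tested regions on a promoter window of an enzyme gene, 0 were higher in MZB and 10 were lower (41.7%), with a median fold change of -0.24. All 9948 promoter regions were much the same, with 9.41% higher, 38.9% lower and a median of -0.22. Of the 140 other regions of genes with a window, 33 were higher (23.6%) and 7 lower (5%), against 26.1% and 8.01% of all regions off the promoter windows. With TMM the promoter regions gave 0 higher and 15 lower (62.5%), against 6.64% and 59.5% of all promoter regions. The other regions gave 21 higher and 13 lower with TMM (15% and 9.29%, against 20.5% and 13.3%). In these classes the shares resemble those of all promoters and all other regions. The 101 regions of genes with no window gave 10 higher and 20 lower (9.9% and 19.8%, against 24.2% and 11.4% of all tested regions). With TMM their shares were 4.95% and 30.7%, against 19% and 18.5% of all. Which of the 101 lie at promoters is not known here. In wild-type, 14 of the 34 genes had regions called in both directions (10 with TMM), among them Ezh2, Kdm4a, Kdm4c and Prdm2 under both scalings. The same count was not made over all genes, so it is not shown to be particular to these genes.

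**Figure D4:**
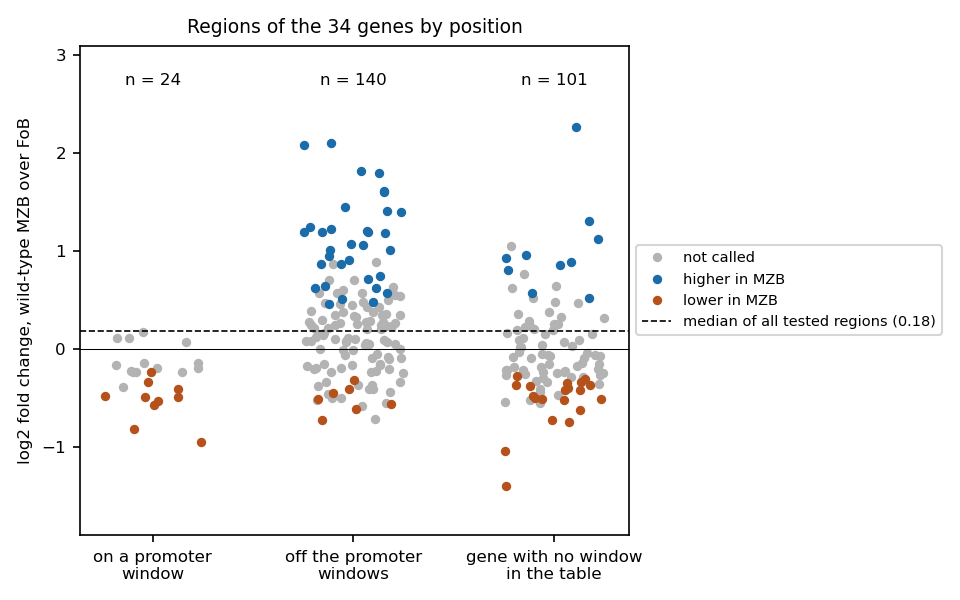
Fold change between wild-type MZB and FoB of the 265 tested regions, by position: 24 on a promoter window, 140 off the windows and 101 of genes with no window in the table. Calls higher in MZB are blue and calls lower in MZB are brown, and the dashed line is the median of all tested regions at 0.18, above the promoter median of -0.24.

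Among the H3K4 methyltransferase genes, 5 of 56 regions were higher in wild-type MZB and 7 were lower (8.93% and 12.5%, against 24.2% and 11.4% of all). With TMM, 4 were higher and 11 lower (7.14% and 19.6%, against 19% and 18.5% of all). The region before Kmt2a described above had the largest fold change of these, with 22.71 ± 1.79 rppm in MZB and 6.079 ± 0.551 rppm in FoB (fold change 1.82 ± 0.20, adjusted p = 3.28e-09). Summed over its 11 regions, Kmt2a was higher in MZB (0.38 ± 0.09, adjusted p = 0.00129), a call lost with TMM (0.20, adjusted p = 0.0582). Kmt2b, a paralogue of Kmt2a with 2 regions, was lower (summed -0.62 ± 0.14, adjusted p = 0.00075). The larger of these held 17.27, 24.99 and 18.66 rppm in MZB and 33.13, 34.99 and 32.95 rppm in FoB, and it is shared with Zbtb32. Kmt2d, the methyltransferase of enhancers often mutated in B cell lymphoma, was lower when its 4 regions were summed (-0.47 ± 0.09, adjusted p = 0.000105). Kmt2e had regions called in both directions, and its sum was lower (-0.25 ± 0.05, adjusted p = 0.000224). The sums of Setd1a and Setd1b were not called on the deposited scale, at 0.12 ± 0.14 and -0.08 ± 0.11, but that of Setd1b was lower with TMM (-0.26, adjusted p = 0.0343).

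Of the 31 regions of PRC2 genes, 10 were higher in wild-type MZB and 4 were lower (6 and 6 with TMM). On the deposited scale these are 32.3% and 12.9% of the regions, against 24.2% and 11.4% of all tested regions. With TMM the shares were 19.4% higher and 19.4% lower, near the 19% and 18.5% of all. The starts of Suz12, Ezh1 and Ezh2 were among the lower ones, and that of Eed was lower only with TMM (-0.14 with the deposited scaling, adjusted p = 0.211). The promoter region of Suz12, the only region of the gene, held 16.19, 20.47 and 16.48 rppm in wild-type MZB and 39.15, 31.04 and 33.66 rppm in wild-type FoB. All MZB libraries were below all FoB libraries (fold change -0.95 ± 0.14, adjusted p = 1.98e-06, and -1.13 with TMM). The Ezh1 start held 8.625 ± 1.67 and 15.41 ± 1.36 rppm (-0.82 ± 0.17, adjusted p = 0.000304), and the Ezh2 start, shared with a long noncoding RNA, held 38.73 ± 1.62 and 55.03 ± 9.29 rppm (-0.49 ± 0.11, adjusted p = 0.000452). Another 6 regions of Ezh2, which encodes the main catalytic subunit, were higher in MZB (4 with TMM). A region 25756 bp before its start, at chr6:47621026-47621509, held 5.668, 7.975 and 6.842 rppm in MZB and 0, 2.313 and 3.104 rppm in FoB (2.08 ± 0.44, adjusted p = 0.000306). Neighbouring regions inside the gene, chr6:47559851-47560267 and chr6:47560898-47561265, held 11.61 ± 2.48 and 10.23 ± 0.595 rppm in MZB and 3.415 ± 0.392 and 4.214 ± 0.816 rppm in FoB. Both were also called with TMM. The summed Ezh2 level was not called (0.01 ± 0.07, adjusted p = 0.888; -0.17 with TMM, adjusted p = 0.0363), and neither was that of Eed (0.06 ± 0.06, adjusted p = 0.454).

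**Figure D5:**
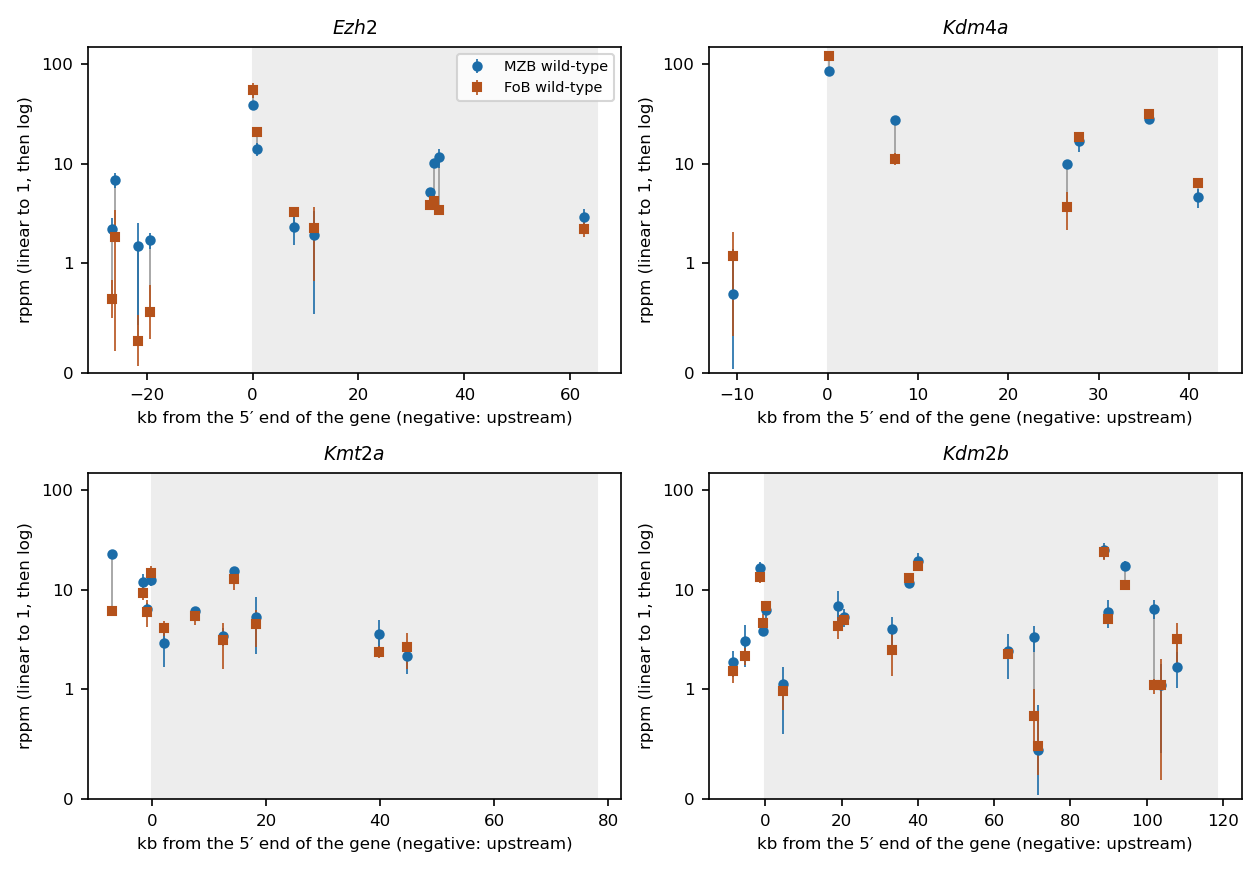
Mean level in rppm ± SD of every region of Ezh2, Kdm4a, Kmt2a and Kdm2b in wild-type MZB and FoB, against distance from the gene's first base in kb, with the gene body in grey. The Ezh2 and Kdm4a starts are lower in MZB (38.73 and 86.22 rppm) than in FoB (55.03 and 120.7 rppm), while regions away from the starts include some that are higher in MZB.

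Of the 41 regions of H3K9 methyltransferase genes, 4 were higher in wild-type MZB and 9 were lower (9.76% and 22%, against 24.2% and 11.4% of all). With TMM, 3 were higher and 12 lower (7.32% and 29.3%, against 19% and 18.5%). Prdm2, which encodes RIZ1, had the most regions of any enzyme gene, 27, with 2 higher and 6 lower, and its sum was lower (-0.27 ± 0.05, adjusted p = 3.76e-05). Its intragenic region at chr4:143140942-143141205 held 2.429, 1.329 and 1.244 rppm in MZB and 4.928, 5.494 and 4.775 rppm in FoB (-1.40 ± 0.32, adjusted p = 0.000772). A different intragenic region, chr4:143127181-143127536, went the other way, with 5.44 ± 0.592 and 1.914 ± 0.419 rppm (1.31 ± 0.29, adjusted p = 0.000463). Ehmt2, which encodes the methyltransferase G9a, had a region near its end at 3.4 ± 1.31 rppm in MZB and 0.636 ± 0.462 rppm in FoB (1.80 ± 0.38, adjusted p = 0.000242), and its neighbour, the highest of the gene, at 7.443 ± 0.861 and 10.81 ± 1.39 rppm (-0.51 ± 0.19, adjusted p = 0.0301). The sum of Suv39h2 was lower (-0.24 ± 0.08, adjusted p = 0.0139), and those of Setdb1 and Ehmt1 were not called.

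Of 23 regions of the H3K36 methyltransferase genes Setd2, Nsd1, Nsd2 and Nsd3, 4 were higher in wild-type MZB and 2 lower (17.4% and 8.7%, against 24.2% and 11.4% of all). With TMM, 1 was higher and 4 lower (4.17% and 16.7%, against 19% and 18.5% of all). In wild-type, the largest fold change of all enzyme regions between MZB and FoB was inside Nsd2, at chr5:33865514-33865687, with 2.159, 3.19 and 2.799 rppm in MZB and 0, 0.2891 and 0.2388 rppm in FoB (2.27 ± 0.41, adjusted p = 3.08e-05), with 29 and 4 reads behind them. The sum of Nsd2 was not called (0.19 ± 0.15). That of Nsd3 was not called on the deposited scale (0.01 ± 0.06) but was lower with TMM (-0.17, adjusted p = 0.0265). At Dot1l, the H3K79 methyltransferase gene, the start was lower, with 16.75 ± 2.42 and 25.18 ± 4.38 rppm (-0.57 ± 0.16, adjusted p = 0.00383). A region just inside Kmt5b, chr19:3768568-3769207, held 14.17 ± 1.06 and 23.85 ± 0.73 rppm (-0.73 ± 0.14, adjusted p = 7.99e-05), and the sum of that gene was lower as well (-0.51 ± 0.10, adjusted p = 0.000162).

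Of the 98 regions of demethylase genes, 19 were higher in wild-type MZB and 13 were lower (19.4% and 13.3%, against 24.2% and 11.4% of all). With TMM, 12 were higher and 22 lower (12.2% and 22.4%, against 19% and 18.5% of all). Annotated starts of Kdm3a, Kdm4a and Kdm4c were among the lower ones. The Kdm3a start held 56.41, 64.33 and 61.89 rppm in MZB and 90.07, 85.78 and 87.62 rppm in FoB, without overlap (-0.53 ± 0.09, adjusted p = 7.01e-06). The Kdm4a start held 86.22 ± 4.3 and 120.7 ± 4.58 rppm, the Kdm4c start 114.1 ± 10.3 and 160.5 ± 7.58 rppm, and the Kdm4b region at the edge of the gene 91.1 ± 3.87 and 129.8 ± 4.84 rppm, all called with either scaling. Inside Kdm4a, chr4:118172237-118173020 went the other way, with 27.3 ± 2.01 rppm in MZB and 11.25 ± 1.51 rppm in FoB (1.25 ± 0.15, adjusted p = 1.95e-08). Kdm4c had 7 regions higher and 1 lower in MZB (5 and 1 with TMM), the farthest 392266 bp from the gene. Kdm6b had 4 of 7 regions lower and 0 higher, and its sum was lower (-0.37 ± 0.07, adjusted p = 0.000143).

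At Kdm2b, neither start was called between the cell types. The internal start held 25.22 ± 4.64 rppm in MZB and 24.06 ± 4.29 rppm in FoB, and the first start 6.293 ± 1.25 and 6.881 ± 0.45 rppm. Downstream of the internal start, chr5:122887118-122887408 held 5.668, 5.583 and 8.086 rppm in wild-type MZB and 1.095, 1.253 and 0.955 rppm in wild-type FoB (2.10 ± 0.31, adjusted p = 1.43e-06). The knockout kept this order, with 8.627 ± 0.495 and 1.339 ± 0.883 rppm (2.43 ± 0.31, adjusted p = 1.13e-07). The summed Kdm2b level was higher in wild-type MZB (0.25 ± 0.07, adjusted p = 0.00293), but not with TMM (0.07, adjusted p = 0.374). Kdm2a, its paralogue, was lower when summed (-0.30 ± 0.08, adjusted p = 0.00242). Kdm5a was higher (0.27 ± 0.08, adjusted p = 0.00517), a call also lost with TMM (0.09, adjusted p = 0.341).

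In the knockout, MZB and FoB also differed at many of these regions. There, 40 regions were higher in MZB and 25 were lower (15.1% and 9.43%, against 23.2% and 9.47% of all), and with TMM 26 and 47 (9.77% and 17.7%, against 18.9% and 15.9%). Of the higher regions, 22 were called in both genotypes, out of 43 in wild-type and 40 in the knockout, and of the lower regions 20, out of 37 and 25. The same overlap was not counted over all tested regions, so these overlaps have no background to be read against. The contrasts use different libraries. Suz12 held 21.39 ± 4.51 rppm in knockout MZB and 28.59 ± 4.02 rppm in knockout FoB (-0.42 ± 0.14, adjusted p = 0.0211), against -0.95 in wild-type. The Ezh1 start was called in wild-type but not in the knockout (-0.23 ± 0.17, adjusted p = 0.324), and the Kdm3a start was at -0.52 ± 0.09 (adjusted p = 1.13e-05). The region before Kmt2a reached 2.46 ± 0.20 (adjusted p = 3.31e-12). Summed over genes, 3 of the 34 were higher and 14 lower in wild-type MZB (23.1% and 25.6% of all genes) and 2 and 8 in the knockout (21.7% and 20.9%), and with TMM 0 and 24 (16% and 43.3%) and 1 and 20 (15.7% and 38.6%). The differences between the genotypes are those of the interaction term, which called no region or summed gene of the set.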

How the data were processed

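The authors deposited 1 table of 94161 regions by 12 libraries, as RPM over the listed regions (rppm: reads per 1000000). Per the submitters' processing notes, Bowtie 1.1.1, MACS2 and the build mm10 were used. The labels state no read filter, peak merging, Tn5 offset or coordinate base, and coordinates are printed as deposited. Whole reads were recovered from the steps of the values (100% whole within 0.01). Regions with at least 1 rppm in 3 libraries (89782) were tested in limma 3.58.1 (R 4.3.3) on log2(rppm + 0.5), with the 4 groups sharing 1 spread, and gene sums likewise. The added edgeR 4.0.16 test on recovered reads called 429 regions higher and 298 lower in knockout MZB, and DESeq2 1.42.0 called 115 and 53. Regions went to every overlapping gene, otherwise the nearest, from 21900 RefSeq protein-coding genes (GRCm38.p6). Scripts were tested on simulated data. Replicate numbers were not shown to pair the libraries and were not used in the main fit. Named regions are each gene's highest, those called in a knockout contrast or the interaction, the 10 with the smallest unadjusted p in each of these, and the 15 largest calls in each direction between MZB and FoB; named sums are those called in a knockout contrast and the 5 largest in each direction between MZB and FoB. Other named regions and sums were chosen after their values were seen. The genes and lists were chosen with earlier results of these data known. Read ratios and intervals cover counting error only.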

Additional observations from a re-analysis of the deposited data

How the results depend on the processing

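Few reads limit the calls at low regions: 3 reads are worth 0.2891 to 0.9464 rppm. Alternatives covered pseudocounts, filters, scaling, spread, gene assignment and tool. Between knockout and wild-type MZB, the 1 higher region became 0 with a filter of 4 rppm, the compared groups alone, edgeR or DESeq2, and the 1 lower region became 2 with quantile normalization and 0 with DESeq2. In FoB, the 1 lower region became 0 with the compared groups alone and with DESeq2. Between wild-type MZB and FoB, 43 higher regions became 26 with a filter of 4 rppm, 21 with quantile normalization, 26 with TMM, 27 within 10000 bp and 19 with DESeq2, and 37 lower became 59 with TMM and 59 with edgeR. In the knockout, 40 higher became 24 with that filter, 16 with quantile normalization, 26 with TMM, 22 with edgeR and 17 with DESeq2, and 25 lower became 47 with TMM and 48 with edgeR. For summed genes, the 1 higher in knockout MZB became 0 with quantile normalization and with the compared groups alone. With TMM, 3 higher and 14 lower in wild-type became 0 and 24, and 2 and 8 in the knockout became 1 and 20. Beyond the compared groups alone, which use fewer libraries, the 4 rppm filter and the 10000 bp limit, which keep fewer regions, the cause was not tested.

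Leaving out 1 library at a time gave 0 to 1 higher and 0 to 2 lower regions in MZB and 0 higher and 1 lower in FoB. Between MZB and FoB it gave 30 to 43 higher and 27 to 38 lower in wild-type, and 24 to 42 and 20 to 26 in the knockout. For summed genes it gave 0 to 1 higher in knockout MZB, 3 higher and 12 to 14 lower in wild-type and 2 to 3 and 7 to 9 in the knockout. No direction reversed.

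Same-numbered libraries were not shown to be paired: their deviations correlated at -0.093 to 0.134 over 18 pairs, and 1 library correlated best with its own number. With a replicate block, the knockout counts were 1 higher and 1 lower in MZB and 0 and 1 in FoB, and those between MZB and FoB 43 and 36 in wild-type and 39 and 26 in the knockout.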
